A study of Mus musculus with 4 samples.

Results

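The genes described here are the matrix metalloproteases (Mmp), the ADAM proteases, the ADAMTS proteases with their ADAMTS-like relatives, and the tissue inhibitors of metalloproteases (Timp) of the mouse pituitary gland. They were chosen by symbol: Mmp, Adam or Timp followed by a number, or any symbol that starts with Adamts, without antisense symbols that end in os. This gave 76 of the 32285 genes counted, of which 21 were Mmp, 27 Adam, 19 Adamts, 5 Adamts-like and 4 Timp genes. A further 7 lettered symbols such as Mmp1b and Adam1a fell outside the rule.

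MMPs are zinc proteases, secreted or held at the membrane, that cut collagens and other matrix proteins. ADAMs are membrane proteins, many of which cut growth factors and receptors off the cell surface, while some, such as ADAM11, ADAM22 and ADAM23, lack a working catalytic site and bind LGI proteins. ADAMTS proteases are secreted and cut proteoglycans, fibrillins and procollagens, their ADAMTS-like relatives have no protease domain, and TIMPs bind and block these enzymes. In the anterior pituitary, endocrine cells lie in cords on a basement membrane beside a fenestrated capillary bed, so both endocrine and stromal cells meet the matrix that these proteins remodel.

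Single nuclei were sequenced from snap-frozen glands of wild-type UM-HET3 mice, a genetically mixed stock. Each of the 4 libraries pooled 3 glands, and by label 1 held glands of males and 1 of females at the age of 5 months, and 1 of each at 22 months. Values of the 4 libraries are given below in that order. No group has a second library. Levels are counts of unique transcripts (UMIs), scaled to CPM, counts per 1000000 of the class sum, and they are not adjusted for gene length.

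Sex-chromosome transcripts went against the label of 2 libraries. Xist was counted in 0.112%, 0.212%, 97.3% and 85.8% of nuclei, and any of 4 Y-linked genes in 85.6%, 84.3%, 0.203% and 0.304%. Both libraries labelled 5-month therefore carried Y-linked transcripts without Xist, and both labelled 22-month carried Xist. Labelled age and this difference cannot be told apart here, and groups are named below as labelled. The libraries held 33328821 to 65773807 UMIs, filtering left 6597 to 10355 nuclei each with a median of 3460 to 4745 UMIs, and pairs of libraries shared 14 to 43 barcodes.

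Clustering without the 76 genes gave 25 clusters, and 11 classes, each with 30 nuclei or more per library, were named from markers: somatotrope-, lactotrope-, thyrotrope-, gonadotrope-, corticotrope-, melanotrope-, stem-, pituicyte-, fibroblast-, endothelial- and macrophage-like. The fibroblast-like cluster also held mural markers, at a summed 975 to 1541 CPM beside 2606 to 5436 CPM of fibroblast markers. Hormone transcripts of the abundant classes were counted in every class. In lactotrope-like nuclei the 5 somatotrope markers, Gh among them, summed to 42031, 27037, 19184 and 10624 CPM, against 229239, 167031, 152635 and 105835 in somatotrope-like nuclei. Classes come from the same nuclei, so levels by class are a description without a test, and in pooled nuclei fewer expressing nuclei and less RNA per nucleus cannot be told apart from a class sum.

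Detection differed widely among the 76 genes. Adam25 and Adam39 had no count in any library, and 22 genes had under 100 counts in all. Adam22 had the most, 21311 counts. Longer genes tended to have more counts (Spearman's rho 0.53 over 76 genes, as a description), as far as their annotated span goes, and levels are therefore compared between classes and not between genes. Of 53 genes with at least 100 counts in the classes, 24 reached a median of 30 CPM on at least 100 counts in some class. Of these 24, 5 were highest in fibroblast-, 4 in macrophage-, 4 in pituicyte-, 3 in stem-, 2 each in endothelial-, somatotrope- and thyrotrope-like nuclei, and 1 each in gonadotrope- and melanotrope-like nuclei. In 10 of the 24 the same class was highest in all 4 libraries, and in 8 the range of the top class lay above that of the next.

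**Figure D1:**
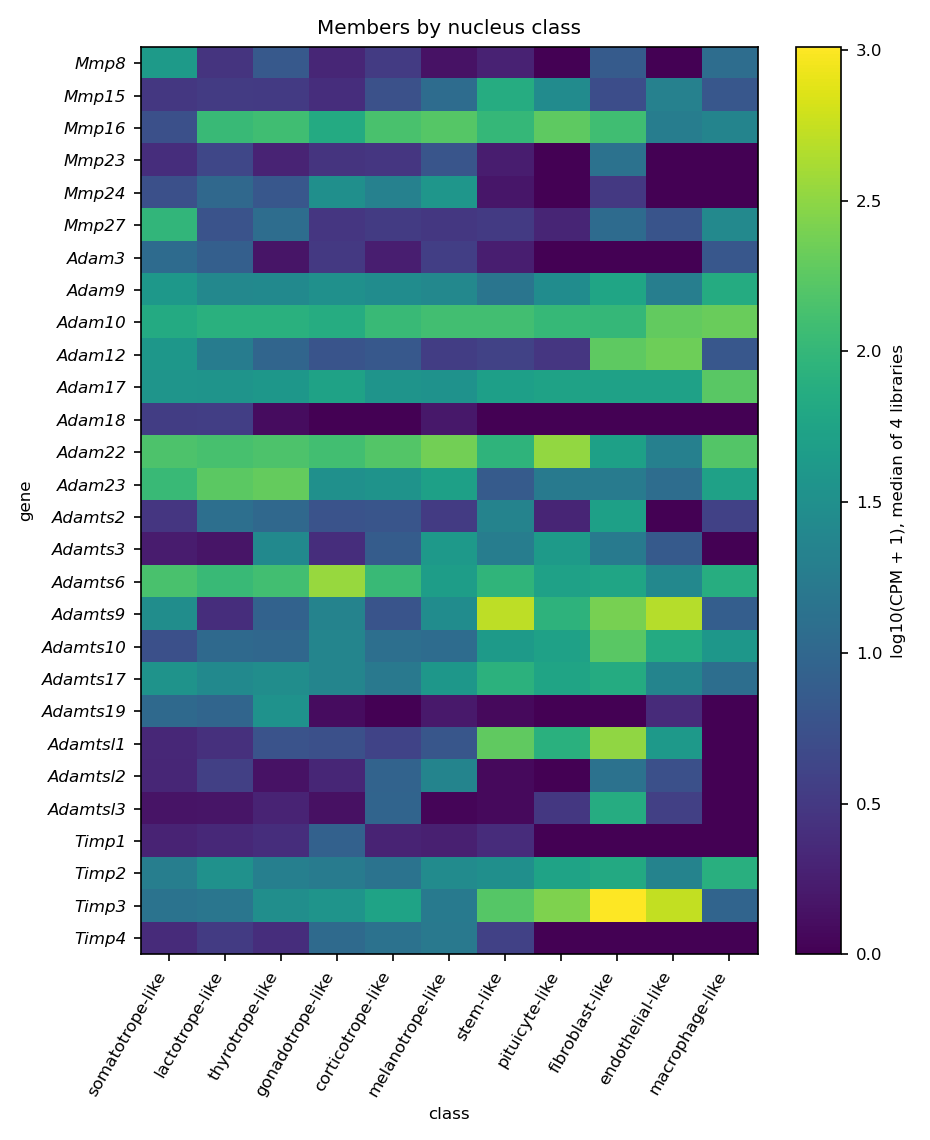
Level of 28 genes (rows) in 11 nucleus classes (columns), as the log10 of the median CPM of 4 libraries plus 1. Timp3 is brightest in fibroblast- and endothelial-like nuclei, Adamts9 in stem- and endothelial-like nuclei, Mmp8 and Mmp27 in somatotrope-like nuclei.

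Timp3, a matrix-bound inhibitor that also blocks ADAM17 and ADAMTS proteases, was the inhibitor with a stromal pattern. Its level was 1085, 958, 802 and 1182 CPM in fibroblast-like, 590, 489, 401 and 826 in endothelial-like, 276, 348, 249 and 264 in pituicyte-like and 307, 175, 136 and 155 in stem-like nuclei, in library order. The ranges of fibroblast- and endothelial-like nuclei overlapped, since the highest endothelial-like value came from the library labelled 22-month females. Macrophage-like nuclei had a median of 8.33 CPM and somatotrope-like nuclei 13.1 CPM. Timp3 (chromosome 10, 86300372 to 86349506) overlaps Syn3 on the opposite strand, and the sources used here do not say whether counting used strand. Syn3, a synaptic vesicle gene, was instead highest in corticotrope-like nuclei, at 325, 277, 430 and 449 CPM, and stood at 89.0, 257, 173 and 270 CPM in fibroblast-like nuclei.

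Timp2, which both blocks MMPs and helps MMP14 activate MMP2, was spread more evenly. Its highest median was in macrophage-like nuclei, at 97.3, 16.3, 108 and 61.1 CPM, and next in fibroblast-like nuclei, at 88.98, 72.4, 60.4 and 54.8 CPM, and those ranges overlapped. Timp1 and Timp4 were low: Timp1 was highest in gonadotrope-like nuclei at 10.3, 12.4, 4.90 and 1.31 CPM, and Timp4 in melanotrope-like nuclei at 10.05, 19.7, 13.3 and 17.6 CPM. Both also overlap synapsin genes on the opposite strand. Syn1 stood at 86.5, 92.8, 122 and 120 CPM in gonadotrope-like nuclei and Syn2 at 205, 288, 329 and 377 CPM in melanotrope-like nuclei, so these low Timp1 and Timp4 values lie beside much higher values of the gene on the other strand.

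Secreted ADAMTS proteases and their relatives made up 10 of the 24 better-detected genes, and 4 of these, Adamts12, Adamts10, Adamtsl1 and Adamtsl3, were highest in fibroblast-like nuclei. Adamts12, known to cut cartilage oligomeric matrix protein, stood at 508, 449, 275 and 307 CPM there against 58.1, 60.2, 54.4 and 82.8 in pituicyte-like nuclei, with no overlap. Adamts10, which acts on fibrillin microfibrils, stood at 165, 185, 158 and 197 CPM there, above every endothelial-like value. The fibrillin-linked relative Adamtsl1 had 364, 240, 279 and 384 CPM in fibroblast-like and 239, 240, 123 and 135 in stem-like nuclei, and the lowest fibroblast-like value was close to the highest stem-like one. Adamtsl3 stood at 46.6, 67.4, 77.04 and 460 CPM, high in the last library. Adamts2, which trims procollagens, stood at 42.4, 49.9, 49.97 and 65.8 CPM in fibroblast-like nuclei, on fewer than 100 counts.

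Adamts9, which cuts the proteoglycans versican and aggrecan, had the pattern shared by stem- and endothelial-like nuclei. It reached 550, 680, 383 and 471 CPM in stem-like, 279, 479, 455 and 633 in endothelial-like and 258, 247, 248 and 186 in fibroblast-like nuclei, against a median of 1.46 in lactotrope-like nuclei. The stem- and endothelial-like ranges overlapped. Mmp15, a membrane-type MMP, was highest in stem-like nuclei in every library, at 97.7, 65.4, 59.4 and 80.6 CPM, with pituicyte-like nuclei next at 29.1, 47.3, 25.1 and 19.7 CPM. Adamts17 was also highest in stem-like nuclei by its median, 83.8 CPM, but its fibroblast-like values ran from 34.9 to 225 CPM and overlapped.

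**Figure D2:**
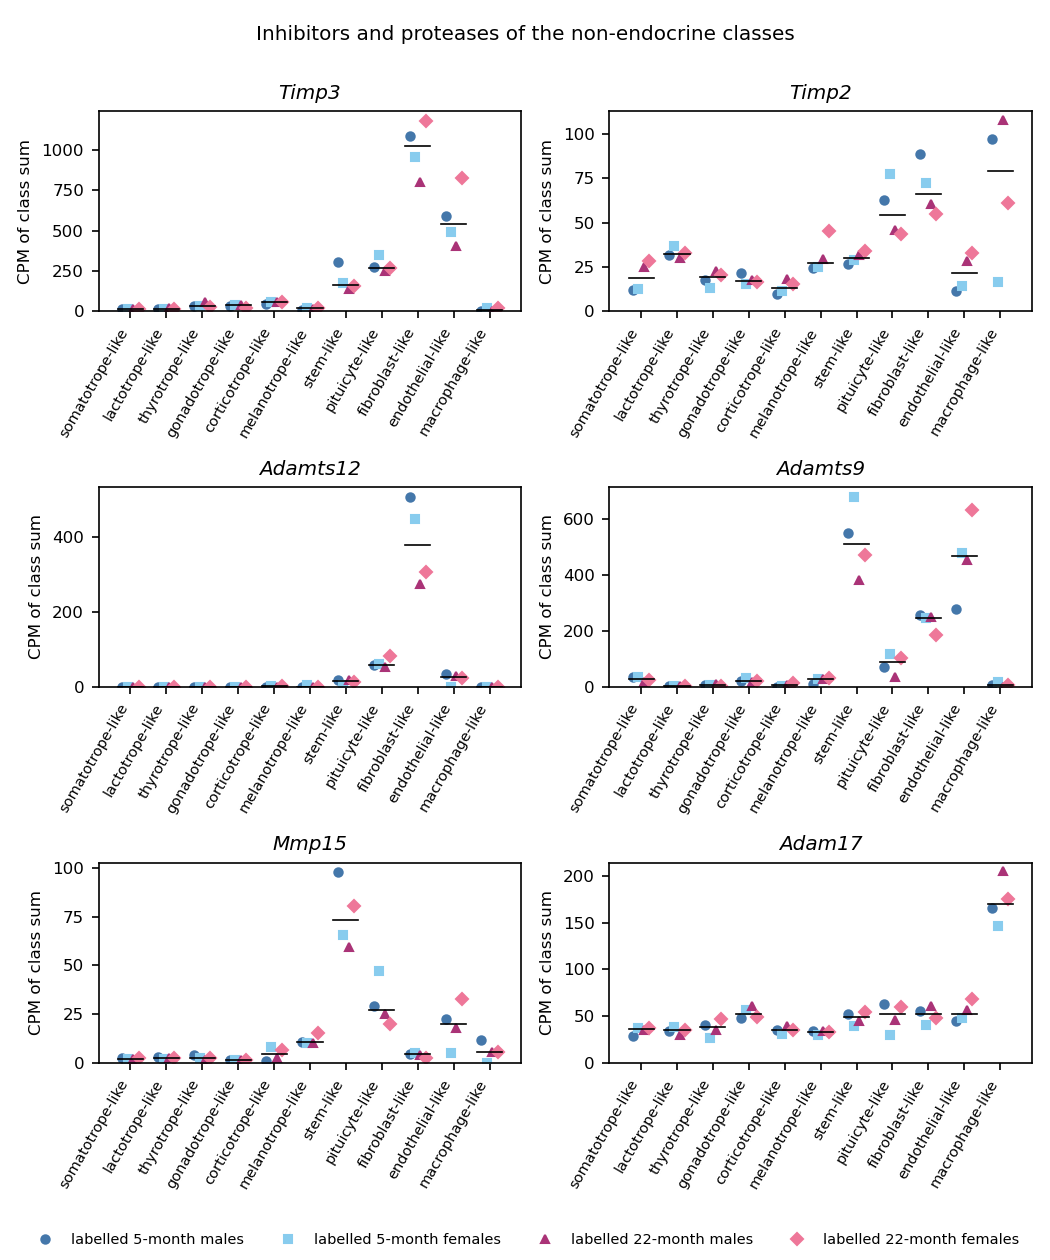
CPM of the class sum (y axis, from 0) of 6 genes in 11 classes, 1 point per library and a bar at the median. Timp3 and Adamts12 peak in fibroblast-like nuclei, Adamts9 in stem- and endothelial-like nuclei, Mmp15 in stem-like nuclei and Adam17 in macrophage-like nuclei, where its 4 values are 147 to 205 CPM.

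Adamts6, a relative of Adamts10, was the gonadotrope gene of the group, at 363, 589, 122 and 332 CPM. The library labelled 22-month males was low at 122 CPM, below the 159 CPM of somatotrope-like nuclei in that library, so gonadotrope-like nuclei were not highest in all libraries. Pituicyte-like nuclei, the glia of the posterior lobe, had the highest medians of the proteoglycan-cutting Adamts5, at 116, 138, 77.4 and 150 CPM, and Adamts1, at 87.2, 120, 41.8 and 70.99 CPM. For Adamts1 these values rest on 18, 28, 20 and 18 counts, and were highest in 3 of 4 libraries. Its fibroblast-like values ran from 17.5 to 136 CPM and overlapped them. The procollagen-trimming Adamts3 was alike in pituicyte-like nuclei (median 43.01 CPM) and melanotrope-like nuclei (median 41.4 CPM).

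The sheddases Adam10 and Adam17, which release Notch, growth factors and cytokines from membranes, were present in all 11 classes and had their highest median in macrophage-like nuclei. Adam17 stood at 166, 147, 205 and 175 CPM there, above the range of every other class, whose highest median was 52.6 CPM in gonadotrope-like nuclei. Adam10 stood at 189, 239, 184 and 231 CPM, which overlapped the endothelial-like values of 167, 192, 188 and 196. Adam9, another sheddase, also had its highest median in macrophage-like nuclei, 69.6 CPM, with fibroblast-like nuclei at 57.2 CPM.

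Adam12 (meltrin alpha), known from muscle and connective tissue, was highest in endothelial-like nuclei at 167, 331, 181 and 264 CPM and in fibroblast-like nuclei at 67.8, 257, 104 and 327 CPM. Its relative Adam19 (meltrin beta) had medians of 87.7, 87.1 and 66.2 CPM in endothelial-, macrophage- and fibroblast-like nuclei, and the ranges overlapped. All other classes had a median of Adam19 below these 3.

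The catalytically silent ADAMs had a more neural and endocrine pattern. Adam22 was highest in pituicyte-like nuclei, at 339, 271, 326 and 438 CPM, and next in melanotrope-like nuclei, at 195, 226, 234 and 383 CPM. Adam23 was high in thyrotrope-like nuclei, at 184, 215, 171 and 215 CPM, and in lactotrope-like nuclei, at 221, 179, 177 and 179 CPM, while its median in stem-like nuclei was 6.22 CPM. Adam11 was low outside pituicyte-like nuclei, where it stood at 33.9, 60.2, 18.8 and 35.5 CPM against a next median of 1.71 CPM. The pituicyte-like values rest on 7, 14, 9 and 9 counts.

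Of the membrane-type MMPs, Mmp16 was widespread among endocrine classes except somatotrope-like nuclei. It stood at 126, 81.7, 309 and 237 CPM in pituicyte-like and 153, 175, 190 and 152 in melanotrope-like nuclei, and at 1.55, 2.16, 6.74 and 7.49 in somatotrope-like nuclei. Mmp24 was highest in melanotrope-like nuclei, at 38.9, 35.7, 43.96 and 35.2 CPM, with gonadotrope-like nuclei next at 29.3, 28.5, 45.1 and 31.4 CPM. The collagenase Mmp14 and the gelatinase Mmp2 had their highest medians in fibroblast-like nuclei, at 50.8, 29.95, 37.5 and 39.5 and 46.6, 52.4, 45.8 and 24.1 CPM. For Mmp14 this held in 3 of 4 libraries, and in that labelled 5-month females pituicyte-like nuclei were higher at 60.2 CPM. The highest median of Mmp28 was in endothelial-like nuclei, at 55.7, 33.5, 74.6 and 27.2 CPM. These values of Mmp14, Mmp2 and Mmp28 each rest on fewer than 100 counts in the class. The other gelatinase, Mmp9, had a highest class median of 0.438 CPM, in corticotrope-like nuclei.

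A run of neighbouring Mmp genes on chromosome 9 (mm10, 7272514 to 7699585, in the order Mmp13, Mmp12, Mmp3, Mmp10, Mmp8, Mmp27, Mmp20, Mmp7) showed an endocrine pattern. Mmp27, whose substrates are poorly known, stood at 88.4, 107, 100 and 76.7 CPM in somatotrope-like nuclei, and Mmp8, the collagenase best known from neutrophils, at 39.2, 48.8, 46.6 and 37.6 CPM. In all 4 libraries both were higher in somatotrope-like nuclei than in any other of the 11 classes, and their ranges there did not overlap those of another class. The next medians were in macrophage-like nuclei, 25.4 CPM for Mmp27 and 10.8 CPM for Mmp8.

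Their quieter neighbours had the same distribution. Somatotrope-like nuclei gave 31.5% of all counts in the classes, but 91.4% of 4311 Mmp27 counts, 91.3% of 1987 Mmp8 counts, 91.0% of 256 counts of Mmp20 (enamelysin, the enamel protease) and 91.2% of 102 counts of Mmp7 (matrilysin). Of the stromelysins, Mmp10 had 51 of 58 counts and Mmp3 27 of 27 in somatotrope-like nuclei. At the far end Mmp12, the macrophage elastase, had 4 of 29 counts there, and Mmp13 2 of 4. The genes that flank the run were shared more evenly: somatotrope-like nuclei gave 30.7% of Dync2h1, 29.0% of Dcun1d5, 59.2% of Tmem123 and 41.9% of Birc2 counts. Mmp8 (7558456 to 7568485) and Mmp27 (7571396 to 7581885) lie 2910 bases apart on the same strand.

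**Figure D3:**
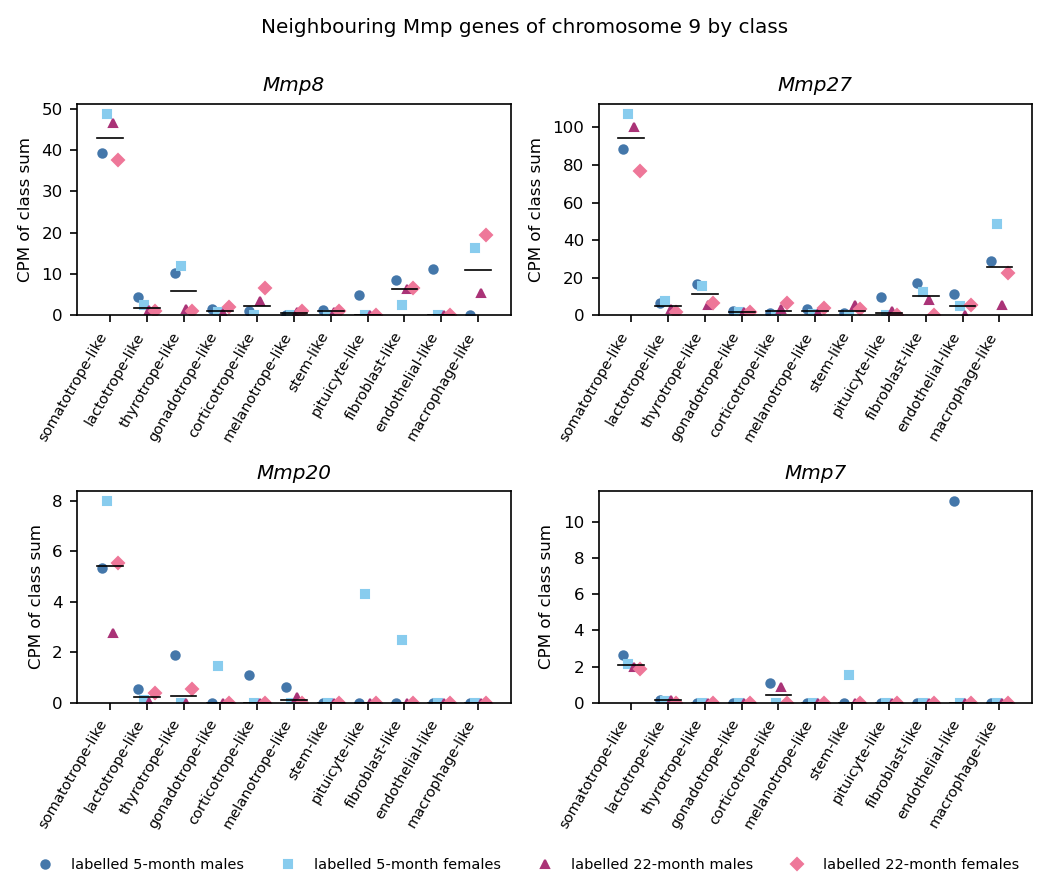
CPM of the class sum (y axis, from 0) of 4 neighbouring Mmp genes in 11 classes, 1 point per library and a bar at the median. All 4 Mmp27 values in somatotrope-like nuclei (76.7 to 107 CPM) lie above every value of another class, and the single high Mmp7 point in endothelial-like nuclei is 1 count in the shallowest sum.

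The promoters of the 4 genes with about 91% of their counts in somatotrope-like nuclei are shown because they share this distribution. Each runs from 250 bases before to 50 after the RefSeq start (GRCm38.p6, plus strand): Mmp8 chr9:7558179-7558478, Mmp27 chr9:7571146-7571445, Mmp20 chr9:7627981-7628280 and Mmp7 chr9:7691840-7692139. Capitals mark TGANTCA, a loose pattern for the AP-1 element that allows any base at N.
Mmp8: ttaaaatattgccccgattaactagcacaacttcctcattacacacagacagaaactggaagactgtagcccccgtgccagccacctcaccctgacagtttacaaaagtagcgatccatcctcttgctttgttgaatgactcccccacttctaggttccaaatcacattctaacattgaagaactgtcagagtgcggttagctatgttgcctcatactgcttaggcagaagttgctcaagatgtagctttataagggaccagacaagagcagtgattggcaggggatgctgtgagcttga
Mmp27: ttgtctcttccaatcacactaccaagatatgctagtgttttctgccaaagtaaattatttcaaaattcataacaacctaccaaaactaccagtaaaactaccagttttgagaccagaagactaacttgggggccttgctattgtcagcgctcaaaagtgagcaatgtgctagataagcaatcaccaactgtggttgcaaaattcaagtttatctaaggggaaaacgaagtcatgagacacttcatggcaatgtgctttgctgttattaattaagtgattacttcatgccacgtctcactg
Mmp20: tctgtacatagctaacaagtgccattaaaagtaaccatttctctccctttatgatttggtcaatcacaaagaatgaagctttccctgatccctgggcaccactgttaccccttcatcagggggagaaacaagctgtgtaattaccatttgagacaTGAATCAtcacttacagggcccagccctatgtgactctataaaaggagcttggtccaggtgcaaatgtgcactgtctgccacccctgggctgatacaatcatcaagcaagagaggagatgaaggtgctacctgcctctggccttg
Mmp7: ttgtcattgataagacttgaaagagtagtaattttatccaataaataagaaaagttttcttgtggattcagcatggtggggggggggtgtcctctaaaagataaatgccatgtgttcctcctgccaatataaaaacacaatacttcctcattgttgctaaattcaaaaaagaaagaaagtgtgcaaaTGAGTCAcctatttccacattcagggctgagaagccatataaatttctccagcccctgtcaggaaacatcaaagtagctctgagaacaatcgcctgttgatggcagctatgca

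The loose AP-1 pattern was searched on both strands. It occurs once in Mmp20, as TGAATCA at -95 from the start, and once in Mmp7, as TGAGTCA at -63. The same loose pattern, with any base at N, occurs in 7.81% of 32851 RefSeq promoters of this length. The core letters of a Pit-1 (POU1F1) element, TATNCAT, were found in none of the 4 windows, and in 8.84% of all promoters. Pit-1 is the pituitary factor of somatotropes, lactotropes and thyrotropes. A match is a description of the letters and not a binding site.

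In single nuclei the pattern was the same after every nucleus was thinned to 2000 UMIs, which left out 79 to 165 shallower somatotrope-like nuclei per library. Mmp27 was counted in 16.2%, 19.1%, 17.8% and 14.4% of somatotrope-like nuclei, against 1.60%, 1.73%, 0.58% and 0.43% of lactotrope-like nuclei. Without thinning these shares were 28.7%, 32.7%, 32.2% and 28.4% against 2.09%, 2.58%, 1.45% and 0.68%. The lactotrope-like share and the somatotrope markers counted in lactotrope-like nuclei, given above, were both lower in the 22-month libraries. Between the 5-month libraries they went opposite ways. The part of the markers was not tested.

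Mmp27 and Mmp8 were not even across somatotrope-like clusters. In the libraries labelled 22-month males and 22-month females, Mmp27 stood at 105 and 90.0 CPM in the larger cluster 3 but at 72.4 and 51.7 CPM in cluster 17, and Mmp8 at 51.1 and 44.0 against 23.1 and 26.7 CPM. Clusters 0 and 2 held most somatotrope-like nuclei of the libraries labelled 5-month, where Mmp27 ran from 68.1 to 118 CPM. In 121 nuclei of the unnamed cluster 24, from the library labelled 22-month males, Mmp27 stood at 65.0 CPM.

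Labelled age was compared in each class with edgeR's quasi-likelihood test on class sums, with labelled sex as a term, and a gene passed at a Benjamini-Hochberg adjusted p under 0.05 over all genes of the fit. With 4 pools the fit has 1 residual degree of freedom, so p-values rest on very little spread, between pools and not between mice. Of 227 tests over 56 of the genes in 11 classes, 27 passed (11.9%), 16 higher with labelled age and 11 lower, beside 6.87% of all tests in the same fits. In all 27 the labelled ages did not overlap, but the calls were chosen on these same values, so this is no separate support. With DESeq2, 15 also passed. The matching shares over all genes called were not computed. When each library was left out in turn, 4 of the 27 passed every time: Adam12, Adam3 and Adam18 in lactotrope-like nuclei and Adam12 in somatotrope-like nuclei. Differences below are log2 fold changes, 22-month over 5-month, with their standard error (SE).

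In lactotrope-like nuclei 10 of 39 genes passed, 5 in each direction, beside 22.9% of all genes tested there, so the share among these genes is near the background. Different clusters hold the lactotrope-like nuclei of the labelled ages, cluster 9 for 5-month and clusters 19 to 22 for 22-month. The largest rises were in genes that were nearly silent in the libraries labelled 5-month. Adamts19, a secreted protease of unknown substrate, went from 3 and 9 counts (0.408 and 0.992 CPM) to 16.4 and 243 CPM, a difference of 7.69 (SE 0.33, adjusted p = 5.8e-06). All 4 values stood apart, and the library labelled 22-month females was far above the other.

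Adam12 rose with less difference between the 22-month libraries, from 1.36 and 1.76 to 33.1 and 41.8 CPM (4.76, SE 0.22, adjusted p = 6.7e-06). Neighbouring genes of the ADAM run on chromosome 8 (24602246 to 25016927), known as sperm surface proteins, did so too. Adam3 went from 0.815 and 0.551 to 13.3 and 18.1 CPM (4.72, SE 0.35, adjusted p = 9.3e-05). Adam18, 2469 bases away, went from 0.272 and 0.331 to 4.89 and 5.35 CPM (4.23, SE 0.50, adjusted p = 0.00092). The next gene, Adam5, 1240 bases from Adam3, had a difference of -0.90 (SE 0.42, adjusted p = 0.17), and Adam32 and Adam9 beyond it -0.25 and 0.09 (adjusted p = 0.67 and 0.74). So 2 of the 5 genes of the run passed, and the other 3 did not. Lowest of those that rose was Mmp23, a membrane-anchored MMP, from 2.04 and 1.54 to 6.49 and 4.61 CPM (1.81, SE 0.35, adjusted p = 0.0088).

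The 5 genes that fell in lactotrope-like nuclei were Adamtsl2, Adamts10, Mmp8, Mmp27 and Adamts6. Adamtsl2, a fibrillin-binding relative without protease domain, fell from 6.39 and 4.63 to 0.7996 and 0.583 CPM (-2.79, SE 0.41, adjusted p = 0.0026). Adamts10 fell from 19.0 and 11.4 to 7.95 and 2.49 CPM (-1.48, SE 0.29), and Adamts6 from 142 and 127 to 88.7 and 70.6 CPM (-0.57, SE 0.11). Mmp27 and Mmp8 fell by 1.39 and 1.45 on the log2 scale (SE 0.40 and 0.44, adjusted p = 0.041 and 0.047), and the somatotrope markers counted in lactotrope-like nuclei were lower in both 22-month libraries too, as given above; their part was not tested. With the library labelled 5-month males or that labelled 5-month females left out, the adjusted p of Adamts19 was 0.14 and 0.15, and with the first left out that of Adamtsl2 was 0.052. Without the same 2 libraries Mmp23 had 0.076 and 0.13, and 0.081 without that labelled 22-month males. Adamts10 (0.47, 0.22 and 0.32), Adamts6 (0.28, 0.20 and 0.24) and Mmp27 (0.19, 0.29 and 0.27) lost their calls when 1 of the libraries labelled 5-month males, 5-month females or 22-month females was left out. Mmp8 passed in none of the 4 fits that left out a library, with adjusted p of 0.11 to 0.35. The TMM factors of the labelled ages differed by -0.19 (log2, 22-month minus 5-month) in lactotrope-like and -0.12 in gonadotrope-like nuclei, so scaling by plain totals would lower the differences there by that size.

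In somatotrope-like nuclei 7 of 40 genes passed, beside 5.31% of all genes. The nuclei of the labelled ages again fell mostly into different clusters, 0 and 2 against 3 and 17. Adamts19 rose from 0.0773 and 1.503 to 18.1 and 84.9 CPM (6.12, SE 0.30, adjusted p = 8.3e-05) and Adam12 from 7.50 and 13.3 to 62.9 and 66.8 CPM (2.71, SE 0.20, adjusted p = 0.00063). Within cluster 3, which held 59, 41, 1508 and 1145 nuclei of the 4 libraries, Adam12 stood at 8.17, 33.9, 58.7 and 74.1 CPM. The 5-month values there rest on few nuclei. Adamts2 rose from 2 and 3 counts to 33 and 74 counts (4.62, SE 0.49, adjusted p = 0.0033). Lactotrope markers in somatotrope-like nuclei summed to 7476, 4423, 52017 and 21194 CPM, so they were also higher in the 22-month libraries, with the order of those 2 libraries opposite to that of Adamts19; their part was not tested.

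The inhibitors Timp2 and Timp4 rose with them. Timp2 went from 12.1 and 12.5 to 24.7 and 28.4 CPM (1.14, SE 0.16, adjusted p = 0.012). Timp4 went from 5 and 6 counts to 19 and 85 counts (3.34, SE 0.51, adjusted p = 0.014). Syn2, on the other strand over Timp4, rose in the same nuclei from 6.34 and 7.99 to 44.8 and 185 CPM (3.76, adjusted p = 0.0020). The sources do not state whether strand was used, and whether reads of 1 gene were counted for the other was not tested. Mmp16 rose from 1.55 and 2.16 to 6.74 and 7.49 CPM (1.98, SE 0.32, adjusted p = 0.018), and Adamts9 fell from 34.9 and 35.2 to 17.7 and 23.6 CPM (-0.75, SE 0.16, adjusted p = 0.046). Timp2, Mmp16 and Adamts9 passed in none of the 4 fits that left out a library, with adjusted p from 0.078 to 0.38. Timp4 (adjusted p = 0.46), Adamts2 (0.13) and Adamts19 (0.11) lost their calls with the library labelled 22-month females left out, and with that labelled 5-month males left out (0.34, 0.12 and 0.15), and Timp4 had 0.16 without that labelled 5-month females. With doublets kept, Mmp16 was lower instead (-2.45, adjusted p = 0.039), and Adamts2, Adamts9, Timp2 and Timp4 had adjusted p of 0.81, 0.35, 0.071 and 0.066. The somatotrope-like class of that setting also differed. It took in a cluster of 331 and 402 nuclei of the 5-month libraries and 0 and 0 of the 22-month ones. A cluster of 2, 3, 254 and 776 nuclei, with the top genes of cluster 17 (Spon1 and Arhgap6 first), took no name. The part of these changes was not tested. Mmp27 and Mmp8, the somatotrope genes, had differences of -0.12 and -0.03 (adjusted p = 0.71 and 0.94).

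**Figure D4:**
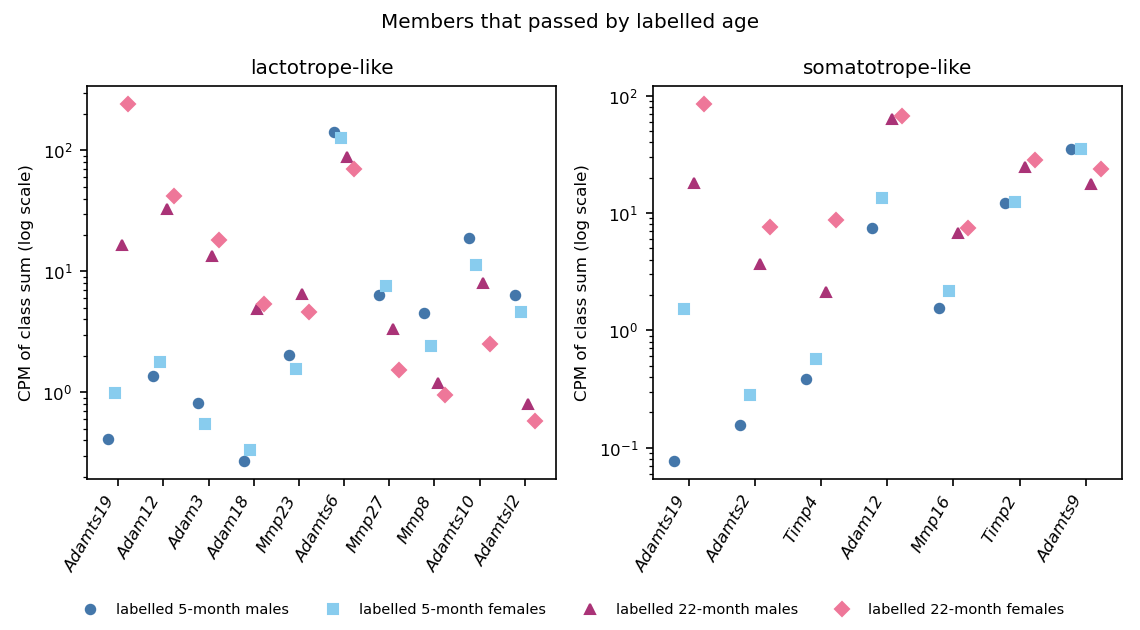
CPM of the class sum (log y axis) of the genes that passed by labelled age in lactotrope-like (left, 10 genes) and somatotrope-like (right, 7 genes) nuclei, 1 point per library, ordered by fold. The labelled ages do not overlap for any of them, and the 2 libraries labelled 22-month differ most for Adamts19 (16.4 and 243 CPM in lactotrope-like nuclei).

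In stem-like nuclei, marked by Sox2 and Sox9, 5 of 21 genes passed, beside 5.92% of all genes. Adamtsl1 fell from 239 and 240 to 123 and 135 CPM (-0.95, SE 0.20, adjusted p = 0.00015). Adamts9 fell from 550 and 680 to 383 and 471 CPM (-0.58, SE 0.18, adjusted p = 0.030), and Timp3 from 307 and 175 to 136 and 155 CPM (-0.78, SE 0.20, adjusted p = 0.0046). The antisense transcript 9530026P05Rik, which overlaps Adamts9, went the other way, from 390 and 427 to 616 and 908 CPM (0.82, adjusted p = 0.00047). Mmp16 rose from 78.7 and 36.5 to 123 and 132 CPM (1.07, SE 0.24, adjusted p = 0.00044), and Adamts17 from 62.2 and 54.8 to 105 and 140 CPM (0.98, SE 0.23, adjusted p = 0.0014). Stem markers in the class summed to 854, 937, 463 and 471 CPM, and lactotrope markers to 10904, 5188, 69320 and 25287 CPM, so both also differed between the labelled ages, and their part was not tested. The library labelled 5-month males set much of the Timp3 difference: without it the adjusted p was 0.80, and without that labelled 22-month males 0.067. Without the library labelled 5-month males or 5-month females it was 0.18 and 0.094 for Adamtsl1, and 0.19 and 0.23 for Adamts17. For Mmp16 it was 0.47 without the library labelled 5-month females, and Adamts9 passed in none of these fits (0.053 to 0.67). DESeq2 passed none of the 5, with adjusted p of 0.18 to 0.81.

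Thyrotrope-like nuclei had 2 of 18 genes past the threshold, beside 5.75% of all genes. Adamts19 rose from 3 and 1 counts to 224 and 117 counts, or from 2.82 and 1.19 to 173 and 64.0 CPM (5.86, SE 0.40, adjusted p = 4.1e-16). Here the library labelled 22-month males was the higher of the 2, the opposite of lactotrope- and somatotrope-like nuclei. Mmp8 fell from 11 and 10 counts to 2 and 2 counts (-3.03, SE 0.82, adjusted p = 0.015), with an adjusted p of 0.97 by DESeq2. It passed in none of the 3 fits without a library that tested it (adjusted p = 0.61 without that labelled 5-month females, 0.10 without 22-month males and 0.36 without 22-month females). Somatotrope markers in thyrotrope-like nuclei were also lower in both 22-month libraries, at 44800, 29049, 22103 and 12440 CPM, and their part was not tested. Without the library labelled 5-month males or that labelled 5-month females Adamts19 had an adjusted p of 0.11.

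Single genes passed in 3 further classes. In gonadotrope-like nuclei, 1 of 18 beside 9.96% of all genes, Adamts6 fell (363, 589, 122 and 332 CPM; -1.07, SE 0.21, adjusted p = 0.0080), and its call was lost without the library labelled 5-month males, 5-month females or 22-month males (adjusted p = 0.48, 0.74 and 0.49). Cluster 12 held 299 and 256 gonadotrope-like nuclei of the 5-month libraries and 4 and 6 of the 22-month ones, and cluster 23 held 1 and 1 against 292 and 164. In pituicyte-like nuclei, 1 of 16 beside 2.02%, Mmp16 rose from 126 and 81.7 to 309 and 237 CPM (1.34, SE 0.30, adjusted p = 0.0022), and had 0.11, 0.46 and 0.50 without the same 3 libraries. In fibroblast-like nuclei, 1 of 23 beside 0.78%, Adamtsl3 (46.6, 67.4, 77.0 and 460 CPM; 2.14, SE 0.38, adjusted p = 0.015) was high in the library labelled 22-month females, without which its difference was 0.45 and did not pass. The Adamtsl3 call had an adjusted p of 0.57 by DESeq2 and 0.058 by edgeR with doublets kept. Mmp16 thus passed, in the same direction, in stem-, pituicyte- and somatotrope-like nuclei, but these calls come from the same 4 libraries. By DESeq2 the adjusted p of Mmp16 was 0.37, 0.43 and 0.036 in these classes. By edgeR without the filter on low counts it was 0.00031, 0.51 and 5.5e-07. In somatotrope-like nuclei its direction turned with doublets kept, as given above.

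No gene passed in corticotrope-like nuclei (0 of 12, beside 1.37% of all genes), endothelial-like (0 of 9, 0.368%), macrophage-like (0 of 8, 0.0238%) or melanotrope-like nuclei (0 of 23, 1.06%) by edgeR or by DESeq2. At an unadjusted p under 0.05 there were 1, 0, 1 and 3. Endothelial- and macrophage-like sums were shallow, from 89758 and 174734 UMIs in the smallest library of each, against 7357850 in the smallest lactotrope-like sum.

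Adamts19 was examined by cluster, since it passed in 3 classes. In the library labelled 22-month females it stood at 258 CPM in lactotrope-like cluster 22, 236 in cluster 20, 140 in cluster 21 and 62.9 in cluster 19. In the library labelled 22-month males the 87 nuclei of cluster 22 held 228 CPM and those of cluster 20 61.5 CPM, while clusters 19 and 21, with 1683 and 2454 nuclei, held 7.52 and 3.88 CPM. So the 2 libraries were close within cluster 22 and apart in the clusters that hold most nuclei of the second. In somatotrope-like cluster 17 the values were 112 and 176 CPM, in cluster 3 2.003 and 37.3 CPM. The name of cluster 17 is the less certain of these. Its marker score, described below, was 1.49 with the next class at 0.54, against 2.25 for cluster 3. Its top 10 genes held 0 somatotrope markers. At 2000 UMIs per nucleus, Adamts19 was counted in 0.103%, 0.0934%, 1.59% and 23.2% of lactotrope-like nuclei (0.139%, 0.202%, 2.45% and 34.4% without thinning). In gonadotrope-like nuclei it was at 0.490 and 0.654 CPM in the 2 libraries labelled 22-month, 1 count each, and at 0 in the others.

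**Figure D5:**
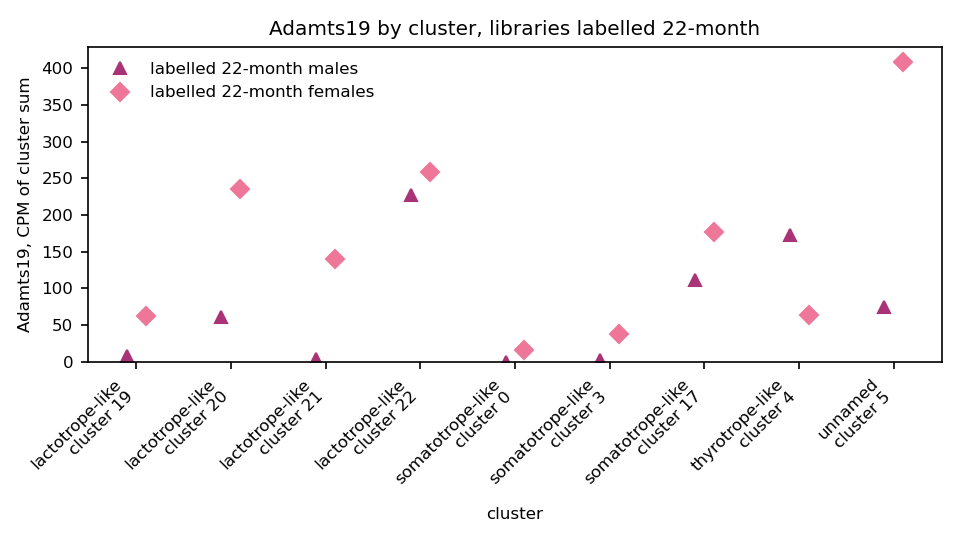
Adamts19, CPM of the cluster sum (y axis, from 0), by cluster (x axis), 1 point per library labelled 22-month. Shown are lactotrope-, somatotrope- and thyrotrope-like clusters and unnamed cluster 5, each with at least 30 nuclei in both of these libraries. The libraries lie close in cluster 22 (228 and 258 CPM) and far apart in clusters 20, 21 and 5.

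Adam12 was also uneven among clusters but high in both 22-month libraries. In cluster 20 it stood at 150 CPM in the library labelled 22-month males and 78.9 CPM in that labelled 22-month females, against 12.4 and 13.8 CPM in cluster 21. After thinning it was counted in 0.361%, 0.467%, 4.90% and 6.81% of lactotrope-like and 1.12%, 1.99%, 9.30% and 9.70% of somatotrope-like nuclei. Without thinning these shares were 0.417%, 0.645%, 9.02% and 13.4%, and 2.44%, 3.89%, 14.9% and 16.6%.

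The libraries whose sex transcripts match their label are 5-month males and 22-month females. Between these 2, with no test, 19 of the 27 differences moved in size by more than their standard error, and 26 kept their sign. Both libraries are part of the fits, and the labelled ages did not overlap in any of the 27. A kept sign therefore follows from the calls and is no further evidence. Adam12 differed by 5.15 on the log2 scale in lactotrope-like and 3.14 in somatotrope-like nuclei, Adam3 by 4.68 and Adam18 by 4.51 in lactotrope-like nuclei, and Adamtsl1 by -0.93 in stem-like nuclei. Adamts19 moved from 7.69 to 9.42 in lactotrope-like and from 6.12 to 10.09 in somatotrope-like nuclei, Adamts10 in lactotrope-like nuclei from -1.48 to -2.73, Adamtsl3 in fibroblast-like nuclei from 2.14 to 3.22, and Mmp16 in stem-like nuclei from 1.07 to 0.64. Adamts6 in gonadotrope-like nuclei was the exception, at 0.04 for sums scaled by their TMM factors, while its plain CPM went from 363 to 332.

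Labelled sex, tested in the same fits with labelled age as a term, gave 7 calls of 227, beside 0.82% of all tests, 3 with no overlap between the labelled sexes, 1 by DESeq2 and 0 when every library was left out in turn. The shares without overlap or passing DESeq2 over all genes called were not computed here either. Because 1 library of each labelled sex goes against its label, these calls are differences between labels. Adamts19 was higher in the libraries labelled female in lactotrope-like nuclei (3.80, SE 0.26, adjusted p = 0.0039; 1 of 39 genes beside 0.602%) and somatotrope-like nuclei (2.29, SE 0.26, adjusted p = 0.018; 1 of 40 beside 0.578%), and lower in thyrotrope-like nuclei (-1.46, SE 0.28, adjusted p = 0.0010; 1 of 18 beside 1.62%). In all 3 the labelled sexes overlapped, since Adamts19 was far higher in both 22-month libraries, and none of the 3 passed in any fit without a library. The direction turned without the library labelled 22-month females in lactotrope-like (-3.28) and somatotrope-like nuclei (-2.64), and without that labelled 22-month males in thyrotrope-like nuclei (3.64). In fibroblast-like nuclei 2 of 23 genes passed, beside 0.164%. Adam12 was higher in both libraries labelled female (67.8, 257, 104 and 327 CPM; 1.67, SE 0.25, adjusted p = 0.019) and Adamts17 lower (225, 34.9, 104 and 37.3 CPM; -2.15, SE 0.34, adjusted p = 0.020). Without the library labelled 5-month males or 5-month females neither passed (adjusted p of about 0.80 or more), nor did Adam12 without that labelled 22-month males (0.061). With doublets kept they had 0.32 and 0.20, and 0.76 each by DESeq2.

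Adamts6 passed by labelled sex in gonadotrope-like nuclei (1.10, SE 0.21, adjusted p = 0.027; 1 of 18 beside 1.41%), higher in the libraries labelled female, and in pituicyte-like nuclei (-1.83, SE 0.48, adjusted p = 0.016; 1 of 16 beside 2.08%), lower in them. In gonadotrope-like nuclei the labelled sexes overlapped (332 CPM in 22-month females, 363 in 5-month males), no fit without a library passed, with adjusted p of 0.95 or more, and DESeq2 gave 0.092. The pituicyte-like call was lost with doublets kept (0.70) and without the library labelled 5-month males (0.48), 22-month males (0.32) or 22-month females (0.92). By edgeR without the filter on low counts, the pituicyte-like call had an adjusted p of 0.81, and DESeq2 gave no adjusted p for it. No gene passed in corticotrope-, endothelial-, macrophage-, melanotrope- or stem-like nuclei (beside 0.481%, 0.184%, 0%, 0.505% and 1.22% of all genes). In those 5 classes 1, 2, 1, 4 and 2 of the genes had an unadjusted p under 0.05, and DESeq2 passed none of them.

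Genes that work with these proteases were taken from 6 lists: inhibitors and regulators, activating convertases, plasminogen activators and astacins, shed ligands and receptors, LGI partners, and matrix substrates. Over the 11 classes 36 of their tests passed by labelled age, against the backgrounds given above. These were 7 higher and 9 lower of 43 in lactotrope-, 4 and 1 of 29 in gonadotrope- and 4 and 1 of 20 in thyrotrope-like nuclei. There were 2 and 2 of 40 in somatotrope- and 2 and 1 of 16 in pituicyte-like nuclei. In stem-, corticotrope- and melanotrope-like nuclei 1 was higher of 28, 22 and 30. In endothelial-, fibroblast- and macrophage-like nuclei 0 passed of 12, 29 and 9.

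Among inhibitors and regulators, 3 of 15 rose and 5 fell in lactotrope-like nuclei, beside 22.9% of all genes that passed there in either direction. Spock3 (testican-3), a proteoglycan that blocks MT-MMP activity, rose from 13.9 and 7.94 to 222 and 369 CPM (4.94, SE 0.32, adjusted p = 4.0e-05). A2m, the protease-trapping alpha-2-macroglobulin, fell from 35.6 and 27.4 to 3.02 and 1.64 CPM (-3.58, SE 0.23, adjusted p = 3.9e-05), and Reck, a membrane-anchored MMP inhibitor, from 117 and 101.1 to 58.6 and 63.5 CPM (-0.64, SE 0.12). Spock3 and A2m passed with each library left out, and Reck in none of these fits (adjusted p = 0.073 to 0.17). A2m also fell in somatotrope-, thyrotrope- and pituicyte-like nuclei. These calls were lost without any 1 library in somatotrope-like nuclei (0.11 to 0.38), without either 5-month library in thyrotrope-like nuclei (0.15 and 0.17), and without that labelled 5-month females (0.48) or 22-month males (0.55) in pituicyte-like nuclei. The convertase Pcsk6 (PACE4) rose in lactotrope-, somatotrope-, thyrotrope- and gonadotrope-like nuclei, from 150 and 161 to 308 and 443 CPM in the first of these. Without the library labelled 5-month males or 5-month females the adjusted p was 0.060 and 0.061 in lactotrope-, 0.44 and 0.28 in somatotrope-, 0.62 and 0.61 in thyrotrope- and 0.68 and 0.47 in gonadotrope-like nuclei. Without that labelled 22-month males it was 0.19 in both somatotrope- and thyrotrope-like nuclei, and without 22-month females 0.24 in somatotrope- and 0.80 in gonadotrope-like nuclei.

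Among substrates, the collagen gene Col1a2 rose in 6 endocrine classes, in lactotrope-like nuclei from 79.0 and 66.4 to 210 and 288 CPM (1.96, SE 0.17, adjusted p = 2.0e-04). With each library left out in turn, the lactotrope-like call passed 4 of 4 times, with the highest adjusted p at 0.033. The other calls were lost without the library labelled 5-month males in melanotrope-like nuclei (0.058), without that or 22-month males in corticotrope-like (0.91 and 0.11), without either 5-month library in gonadotrope-like (0.16 and 0.18), without any but 22-month males in thyrotrope-like (0.27 to 0.81), and without any 1 in somatotrope-like nuclei (0.084 to 0.33). It is also a marker of fibroblasts, and the 7 fibroblast markers, Col1a2 among them, summed in lactotrope-like nuclei to 117, 101.4, 282 and 415 CPM; their part was not tested. The brain proteoglycan Bcan, cut by ADAMTS proteases, rose in lactotrope- and thyrotrope-like nuclei, and its thyrotrope-like call was lost without the library labelled 5-month males, 5-month females or 22-month females (0.79, 0.31 and 0.44). Among shed ligands, Nrg1 (neuregulin-1) was the gene that passed in stem-like nuclei, from 269 and 178 to 737 and 583 CPM (1.52, SE 0.19, adjusted p = 1.7e-11), with 0.089 without the library labelled 5-month females. It rose in pituicyte-like nuclei too, but not without the library labelled 5-month males (0.98) or 22-month males (0.67).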

How the data were processed

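Counts were used as the authors deposited them: whole UMI counts per gene and barcode, made with Cell Ranger 7.0.1 per the file headers and on genome build mm10 per the submitters' processing notes. The sources used here do not say whether intronic reads or strand were used in counting. Per the labels' protocols, nuclei of 3 glands were pooled per library and 10x Genomics 3' libraries were made. The members and gene lists were chosen with earlier results of these data known. Barcodes with under 500 genes (271 to 1411 per library) or over 5% mitochondrial counts (56 to 118) were removed, then doublets called by Scrublet at 1 common score of 0.135 (10.5% to 14.2% of the rest). Nuclei were clustered in scanpy 1.11.5 on 3000 variable genes, leaving out the 76 genes, 7 hormone genes, sex-check and mitochondrial genes, with 30 components, 15 neighbours and Leiden resolution 1. A cluster took the class whose markers scored highest, if the score was at least 1 and led by 0.9, limits set after clusters were seen. Of the 25 clusters, 4 stayed unnamed.

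Counts were summed per class and library and tested with edgeR 4.0.16 (quasi-likelihood, TMM, its filter on low counts, Benjamini-Hochberg over all genes kept), with labelled age and labelled sex as terms. An SE is the log2 fold divided by the root of the F statistic. Scripts were tested on simulated data. Genes named by rule were the 20 with most counts among those with 30 CPM and 100 counts in a class, every gene that passed a test, and Timp1 to Timp4. Adam5, Adam11, Adam19, Adam32, Adamts1, Adamts5, Adamts12, the further Mmp genes of chromosome 9, Mmp2, Mmp9, Mmp14 and Mmp28 were added after their values were seen. Positions are from GENCODE M21 (mm10), and 46 of 76 genes matched the RefSeq promoters. Alternatives were DESeq2 1.42.0, no filter on low counts, 1 term alone, each library left out (with the labelled term alone on 3 libraries, where the lone library is assumed to vary like the others), Leiden resolution 2, members among the clustering genes, doublets kept, and the 2 libraries that match their label.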

Additional observations from a re-analysis of the deposited data

Results flagged for a closer look

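In 5 genes and classes the libraries labelled male and those labelled female moved in opposite directions from 5 to 22 months. Each move was beyond counting error, but with 1 library per group the difference was not tested. The share of all genes that move in this way is not given here, so these 5 cases have no background to be set against. Ratios and directions are for class sums scaled by their TMM factors, 22-month over 5-month, and not for plain CPM. Adam23 in lactotrope-like nuclei was 0.924 between the libraries labelled male and 1.14 between those labelled female. In plain CPM, given above, the libraries labelled female were alike for Adam23, so its opposite direction depends on the TMM factors. In somatotrope-like nuclei Mmp27 was 1.16 and 0.725, and Mmp8 was 1.22 and 0.783. Timp3 was 0.671 and 1.67 in endothelial-like nuclei, and 0.755 and 1.20 in fibroblast-like nuclei. Each pair holds 1 library whose sex transcripts go against its label.

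Members were also counted in clusters that took no class name and entered no comparison. Adamts19 stood at 232 CPM over the 562 nuclei of cluster 5, of which 284 and 274 came from the libraries labelled 22-month males and 22-month females. Adam12 stood at 75.4 CPM in cluster 24, where 121 of 122 nuclei came from the library labelled 22-month males.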

How the results depend on the processing

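No paired analysis was possible because each group has 1 library. The 27 calls by labelled age became 15 with DESeq2 (all among the 27), 41 without the filter on low counts (25 shared), 11 with labelled age alone, and 6 to 22 with 1 library left out. Leiden resolution 2, members among the clustering genes and doublets kept gave 29, 25 and 30, with 25, 23 and 20 shared. The 7 calls by labelled sex became 1 with DESeq2, 12 without the filter, 0 with labelled sex alone and 0 to 3 with 1 library left out. The 36 calls of related genes became 20 with DESeq2 and 11 to 30 with 1 library left out. Folds of single genes turned in 5 cases. Adamts19 by labelled sex ranged from -3.28 to 8.39 in lactotrope-like and from -2.64 to 8.92 in somatotrope-like nuclei over the libraries left out, low without that labelled 22-month females, and from -6.08 to 3.64 in thyrotrope-like nuclei, high without that labelled 22-month males. Adamts6 by labelled age in gonadotrope-like nuclei was 0.036 between the 2 libraries that match their label, and Mmp16 in somatotrope-like nuclei -2.45 with doublets kept; the cause was not tested. The class with the highest median was the same for 24 of 24 genes at resolution 2 and with members among the clustering genes, and for 17 of 24 with doublets kept (not for Adam9, Adam10, Adam12, Adam19, Adamts3, Mmp16 and Timp2). With a single residual degree of freedom and sums as small as 89758 UMIs in endothelial-like nuclei, low genes of small classes could not be tested.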
